A study of Mus musculus with 32 samples.

Results

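Type I interferon-stimulated genes were followed as a list of 39 gene symbols, of which 38 had a row among the 17586 genes of the deposited expression table. The listed gene Ifi27 was not analysed here. The members were taken by symbol, with no cut on their values. Earlier results of these data were known when the list was chosen. RNA was measured in 32 libraries of cells sorted from mouse brain, 8 from each of 4 populations. Microglia of the tumour (tumour microglia here) and the tumour's differentiated and undifferentiated macrophages came from immunocompetent chimeric mice that had received intracranial implants of GL-261, a mouse glioma cell line used as a model of glioblastoma. Normal microglia came from mice labelled as without graft and without tumour. The recipient strain was C57BL/6J (WT) for 4 libraries of every population and Pep3/CD45.1, a strain with another allele of the leukocyte antigen CD45, for the other 4. The tumour populations of WT recipients were labelled as PEP-3 into WT, and those of the other recipients carried the reverse graft. No animal received a treatment, per the labels. The way the chimeras were made, the sorting gates and the number of animals behind each library were not stated in the labels, and every p-value therefore reflects the spread from library to library, which may be technical.

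Type I interferons are secreted when cells sense viral or misplaced nucleic acid, and they act through the receptor chains IFNAR1 and IFNAR2 and the kinases JAK1 and TYK2. The kinases activate the factor ISGF3, which holds STAT2 and IRF9, and ISGF3 binds the interferon-stimulated response element, a repeat of GAAA blocks, in the promoters of its target genes. The targets include antiviral effectors, sensors that renew the alarm, more of the pathway's own transcription factors and brakes such as USP18. In brain, microglia are known to respond to interferon in infection, injury, ageing and neurodegeneration, and macrophages that enter from blood can mount the same programme.

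The response element was visible in the promoters of several members. RefSeq promoter windows, 250 bases before to 50 bases after the gene start on build GRCm38.p6, were found for 30 of the 38 members. The letters GAAA, any 2 bases and GAAA again were searched on both strands, with overlapping matches counted. A gene was counted where any of its windows held a match, and the 30 members had 38 windows. Matches were present for 12 of these 30 members (40%) and for 3.99% of 27025 genes with a window. The longer form, with CT directly after the last GAAA, was present for 6 of the 30 (20%) and for 0.303% of all genes with a window. The 12 members were Isg15, Ifit1, Ifit3, Rsad2, Stat2, Ddx58, Ifih1, Bst2, Ifitm3, Eif2ak2, Slfn5 and Slfn8. The 160 bases before the start are shown for 5 of them that span the antiviral, ubiquitin-like and membrane roles described next, with every match in capitals, read as GAAA blocks or, on the opposite strand, as TTTC blocks.
Isg15, chr4:156200819-156200978, minus strand: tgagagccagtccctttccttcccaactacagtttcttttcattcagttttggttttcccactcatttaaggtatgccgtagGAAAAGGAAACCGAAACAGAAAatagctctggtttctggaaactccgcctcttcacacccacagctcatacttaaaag
Ifit3, chr19:34583369-34583528, plus strand: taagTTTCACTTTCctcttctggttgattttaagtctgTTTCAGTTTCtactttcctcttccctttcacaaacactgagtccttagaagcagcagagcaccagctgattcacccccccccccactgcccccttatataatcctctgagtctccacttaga
Ifit1, chr19:34640729-34640888, plus strand: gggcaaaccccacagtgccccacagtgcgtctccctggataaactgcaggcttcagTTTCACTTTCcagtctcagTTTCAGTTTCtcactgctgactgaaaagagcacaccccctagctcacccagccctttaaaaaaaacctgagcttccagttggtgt
Rsad2, chr12:26456453-26456612, minus strand: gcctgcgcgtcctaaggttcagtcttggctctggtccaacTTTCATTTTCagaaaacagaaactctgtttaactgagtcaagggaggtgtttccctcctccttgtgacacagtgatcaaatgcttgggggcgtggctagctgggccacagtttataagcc
Bst2, chr8:71537473-71537632, minus strand: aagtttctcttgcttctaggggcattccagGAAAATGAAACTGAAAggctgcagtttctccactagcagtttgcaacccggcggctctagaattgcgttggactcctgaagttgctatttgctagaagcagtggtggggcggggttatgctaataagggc
In Isg15 there were 3 overlapping matches, together from base -78 to base -57 relative to the gene start. Ifit3 and Ifit1 each had 2 separate matches on the opposite strand, and Rsad2 had 1 there. In Bst2 there were 2 overlapping matches, from base -130 to base -115. A match describes the letters of the window and was not tested as a binding site.

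The deposited values were signed scores centred on 0 for every gene, from -6.50 to 6.92, so a score is neither a level nor a fold and differences are given in units of the deposited scale. Sequencing depth is unknown. The 32 libraries spanned 21 dimensions, since 11 sample directions, among them the overall mean and the difference between recipient strains, carried no variation. Of the 32 libraries 9 kept under 50% of their own variation (at most 38.96%): tumour microglia 27, differentiated macrophages 28 and 31, undifferentiated macrophages 8 and 29, and normal microglia 1, 10, 18 and 26, numbered as in the labels. All 6 microglia marker genes were lower, and all 6 monocyte and macrophage marker genes higher, in both macrophage populations than in tumour microglia, so the population labels held on these markers. Each population of tumour cells came from the experiments numbered 3 and 4 in the labels, and normal microglia came from experiments 1 and 2. Tumour, graft and experiment therefore cannot be told apart in a comparison with normal microglia. In sorted bulk cells, fewer responding cells and less RNA per cell cannot be told apart either.

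**Figure D1:**
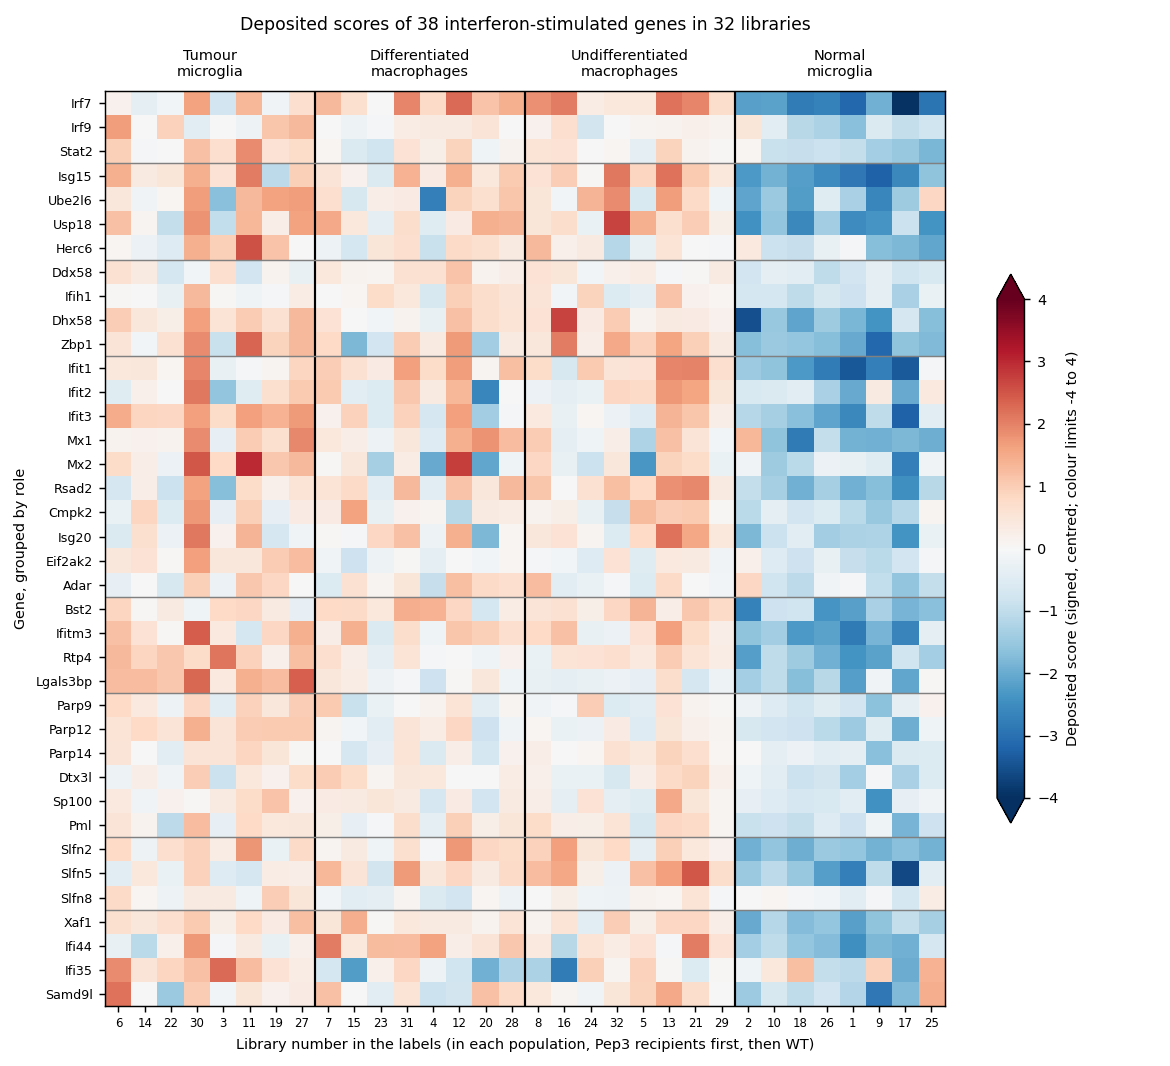
Deposited scores (colour, in units of the deposited scale, limits -4 to 4) of the 38 members (rows, grouped by role) in the 32 libraries (columns, by population, numbered as in the labels). The columns of normal microglia are mostly blue (below 0) from Irf7 at the top to Samd9l at the bottom, with normal microglia library 25 the palest. The columns of the 3 tumour populations are mostly red.

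The members scored higher in the tumour populations than in normal microglia, with few exceptions. The median score of the 38 members in a library was 0.0223 at the lowest, 0.499 at the median and 1.42 at the highest in tumour microglia. The same 3 values were -0.196, 0.290 and 0.859 in differentiated macrophages and 0.0814, 0.283 and 0.882 in undifferentiated macrophages, against -1.72, -1.08 and -0.553 in normal microglia. No library of a tumour population was as low as any library of normal microglia, and the tumour populations overlapped one another. Normal microglia had the lowest mean score of the 4 populations for 36 of the 38 members. The exceptions were Ifi35 and Slfn8, lowest in differentiated macrophages. Tumour microglia had the highest mean for 17 members, undifferentiated macrophages for 15 and differentiated macrophages for 6.

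**Figure D2:**
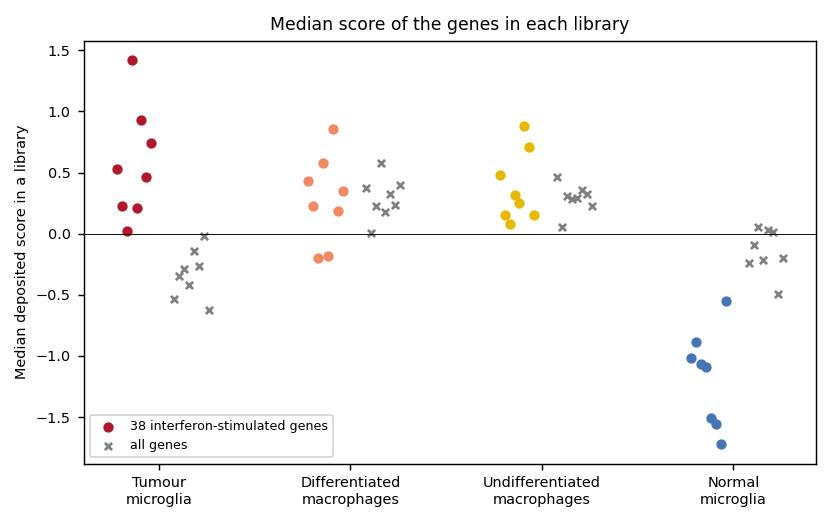
Median deposited score (y axis, units of the deposited scale) of the 38 members (coloured points) and of all 17586 genes (grey crosses) in each library, by population. Member medians of the tumour populations lie between -0.196 and 1.42, above those of normal microglia at -1.72 to -0.553. The medians of all genes lie below 0 in tumour microglia and above 0 in both macrophage populations.

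Tumour microglia were set against normal microglia first, the comparison of resident cells with and without tumour. Of the 38 members, 26 were called higher in tumour microglia and 0 lower, at a Benjamini-Hochberg adjusted p below 0.05 over all genes in limma. Among all 17586 genes 4.66% were called higher and 12% lower. The fitted difference was positive for all 38 members, with a median of 1.73, against a median of -0.245 over all genes. The 8 tumour libraries did not overlap the 8 normal libraries for 12 members, with the tumour libraries higher, and the same held for 1.01% of all genes. With the median of each library subtracted before the fit, 34 members were called higher and 0 lower, beside 7.72% of all genes called higher and 7.6% lower. Leaving out single libraries gave counts from 11 to 29. The count was 11 without normal microglia 10, 13 without normal microglia 1, 15 without tumour microglia 27 and 16 without normal microglia 18, which all kept under 50% of their own variation, and the members called in each of the 32 such fits were Isg15, Ifit3, Irf7, Ifitm3, Dhx58, Rtp4, Lgals3bp, Slfn2 and Xaf1.

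Some fits with few residual degrees of freedom called none of the members. Within WT recipients limma called 0 members (11 at an unadjusted p below 0.05), with 31 of 38 differences positive and a median of 0.808. Within Pep3 recipients limma called 0 (6 unadjusted), with 37 positive and a median of 1.84. These fits had 3 residual degrees of freedom and called 0 of all 17586 genes. Without the 9 libraries that kept under 50%, 0 members were called (18 unadjusted), all 38 differences were positive and the median was 1.82, with 6 residual degrees of freedom.

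Among the transcription factors, all 3 members were higher in tumour microglia. Irf7, the interferon regulatory factor that amplifies the response, scored -0.77, 0.04 and 1.59 (lowest, median and highest library) in tumour microglia, against -3.94, -2.74 and -1.94 in normal microglia. The groups did not overlap, and the fitted difference was 3.08 ± 0.45 (SE, 8 libraries against 8, limma adjusted p = 0.00022). The ISGF3 subunit Stat2 scored -0.04, 0.69 and 1.89 in tumour microglia, against -1.82, -0.95 and 0.06 in normal microglia. Only normal microglia library 2 reached the range of the tumour libraries, and the difference was 1.74 ± 0.33 (adjusted p = 0.0016). Without normal microglia 10 the difference in Stat2 was 1.11 and not called. Irf9, the DNA-binding subunit of ISGF3, scored -0.42, 0.45 and 1.67 in tumour microglia, against -1.68, -0.87 and 0.50 in normal microglia. The groups overlapped, with normal microglia 2 well inside the tumour range, and the difference was 1.37 ± 0.38 (adjusted p = 0.017). The Irf9 call was lost without tumour microglia 27 (0.89) or without normal microglia 10 (1.58), 18 (1.07), 26 (0.85) or 1 (0.50), and in Pep3 recipients alone the estimate for Irf9 was -1.89.

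The genes of the ISG15 system, a ubiquitin-like modifier with its own enzymes, were all called higher. Isg15, the modifier itself, scored -1.03, 0.77 and 2.04 in tumour microglia, against -3.24, -2.40 and -1.60 in normal microglia. The lowest tumour library, 19, was still above every normal library, and the difference of 3.36 ± 0.42 (adjusted p = 4.9e-05) was the largest of the list. Usp18, which removes ISG15 and also blocks signalling at IFNAR2, differed by 2.65 ± 0.53. Ube2l6, the conjugating enzyme, differed by 2.06 ± 0.63, and Herc6, the ligase that attaches ISG15 in mouse, by 1.41 ± 0.43. The Usp18 call was lost without tumour microglia 27 (1.96) or normal microglia 10 (2.00), 18 (1.94) or 1 (2.57). The Ube2l6 call was lost in 7 of the 32 fits that left out a library, down to 0.63 without normal microglia 10. The Herc6 call was lost in 6 of them, down to 0.72 without normal microglia 10.

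Of the 4 nucleic acid sensors, 2 passed. Dhx58 (LGP2, a regulator of the RIG-I family) differed by 2.88 ± 0.36 (adjusted p = 4.9e-05) with no overlap between the groups. Zbp1, which binds left-handed nucleic acid and can start necroptosis, differed by 2.76 ± 0.52, also with no overlap, but by 1.85 and not called without normal microglia 10. Ifih1 (MDA5), a sensor of long double-stranded RNA, differed by 0.95 ± 0.36, and Ddx58 (RIG-I), a sensor of short RNA ends, by 0.66 ± 0.32, neither called with all libraries. Ifih1 was called without undifferentiated macrophages 8 (1.04).

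Of the 10 antiviral effectors, 7 were called higher. Ifit3, of the IFIT family that binds viral RNA, scored 0.72, 1.45 and 1.71 in tumour microglia, against -3.23, -1.49 and -0.42 in normal microglia. The groups did not overlap and the difference was 3.13 ± 0.47 (adjusted p = 0.00028). Reads of Ifit3 and of its near-identical neighbour Ifit3b may have been shared between them, so its value is uncertain. Ifit1, which binds RNA caps, differed by 2.86 ± 0.45. Its highest scores were 1.96 in tumour microglia (library 30) and -0.0628 in normal microglia (library 25). Tumour microglia 3 (-0.301) and 11 (-0.0658) were below normal microglia 25, so the groups overlapped. The Ifit1 call was lost without normal microglia 1 (2.68). Mx1, a dynamin-like GTPase whose gene is defective in most inbred mouse strains, differed by 2.14 ± 0.51, Isg20, an exonuclease, by 1.70 ± 0.49 and Rsad2 (viperin), which makes a chain-terminating nucleotide, by 1.66 ± 0.45. Eif2ak2 (PKR), the kinase that stops translation on double-stranded RNA, differed by 1.31 ± 0.33, and Cmpk2, a mitochondrial nucleotide kinase next to Rsad2, by 1.23 ± 0.41. Each of these 5 calls was lost without normal microglia 10, where the differences were 0.59 for Mx1, 0.88 for Isg20, 0.57 for Rsad2, 0.80 for Eif2ak2 and 1.09 for Cmpk2. Without tumour microglia 27, normal microglia 18 or normal microglia 1 the calls of Mx1, Rsad2, Eif2ak2 and Cmpk2 were lost as well, the lowest value being 0.82 for Mx1 without normal microglia 18. Cmpk2 was called in 21 of the 32 fits, and Isg20 also lost its call without tumour microglia 30 (1.39), normal microglia 2 (1.42) or normal microglia 26 (2.03). Mx2 (1.98 ± 0.71), Ifit2 (1.14 ± 0.57) and Adar, the RNA editing enzyme (0.70 ± 0.42), were not called, and Mx2 passed in 6 of the fits that left out a library, at 1.90 to 2.58.

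The 4 membrane and secreted members were all called higher. Ifitm3, which blocks virus entry at endosomal membranes, scored -0.69, 0.70 and 2.42 in tumour microglia, against -2.84, -1.999 and -0.38 in normal microglia. Tumour microglia library 11 alone lay inside the normal range, and the difference was 2.92 ± 0.43 (adjusted p = 0.00026). Bst2 (tetherin), a surface protein that holds budding virus, scored -0.32, 0.36 and 0.86 in tumour microglia, against -2.71, -1.76 and -0.79 in normal microglia. The groups did not overlap, the difference was 2.12 ± 0.38 (adjusted p = 0.00099), and the call was lost without normal microglia 26 (1.40) or 1 (2.08). Rtp4, a receptor transporter that binds RNA in infected cells, differed by 2.86 ± 0.32 (adjusted p = 1.8e-05), and Lgals3bp, a secreted galectin-binding glycoprotein, by 2.82 ± 0.37 (adjusted p = 6.9e-05). Rtp4 and Lgals3bp showed no overlap between the groups.

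The remaining members were the PARP, nuclear body and Schlafen genes and 4 others. Of 6 PARP and nuclear body genes, Parp12, a mono-ADP-ribosyltransferase, differed by 1.88 ± 0.34 with no overlap, and Pml, the organiser of nuclear bodies, by 1.15 ± 0.38. The Parp12 call was lost without normal microglia 10 (1.43) or 1 (1.79), and the Pml call in 12 of the 32 fits, down to 0.50 without normal microglia 10. In WT recipients alone the estimate for Pml was -0.19. Parp9 (1.09 ± 0.39), its partner Dtx3l (0.92 ± 0.32), Sp100 (1.00 ± 0.38) and Parp14 (0.79 ± 0.31) were not called with all libraries. Sp100 was not called although its groups did not overlap, by a narrow gap (tumour microglia 14 at -0.135, normal microglia 25 at -0.156). Leaving out a library brought Parp9 past the threshold in 6 fits, Dtx3l in 4 and Sp100 in 1. Of the Schlafen genes, Slfn2, which in mouse keeps T cells and monocytes quiescent, differed by 2.40 ± 0.35 with no overlap, and Slfn5 by 1.87 ± 0.46. The Slfn5 call was lost without tumour microglia 27 (1.74) or normal microglia 10 (1.63), 18 (1.83), 26 (1.80) or 1 (1.34), and its estimate in WT recipients alone was -0.47. Slfn8 (0.48 ± 0.29), which shares sequence with Slfn9 and is therefore uncertain, had the smallest difference of the list. Xaf1, which binds the apoptosis inhibitor XIAP, differed by 2.37 ± 0.30 with no overlap, and Ifi44, a cytoplasmic antiviral protein, by 1.71 ± 0.43. The Ifi44 call was lost without tumour microglia 27 (1.63) or normal microglia 10 (1.53), 18 (1.74) or 1 (1.23). Samd9l (1.47 ± 0.56), an antiviral restriction factor, and Ifi35 (1.26 ± 0.61), a cytoplasmic leucine zipper protein, were not called with all libraries. Samd9l passed in 4 fits that left out a library and Ifi35 in 2.

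**Figure D3:**
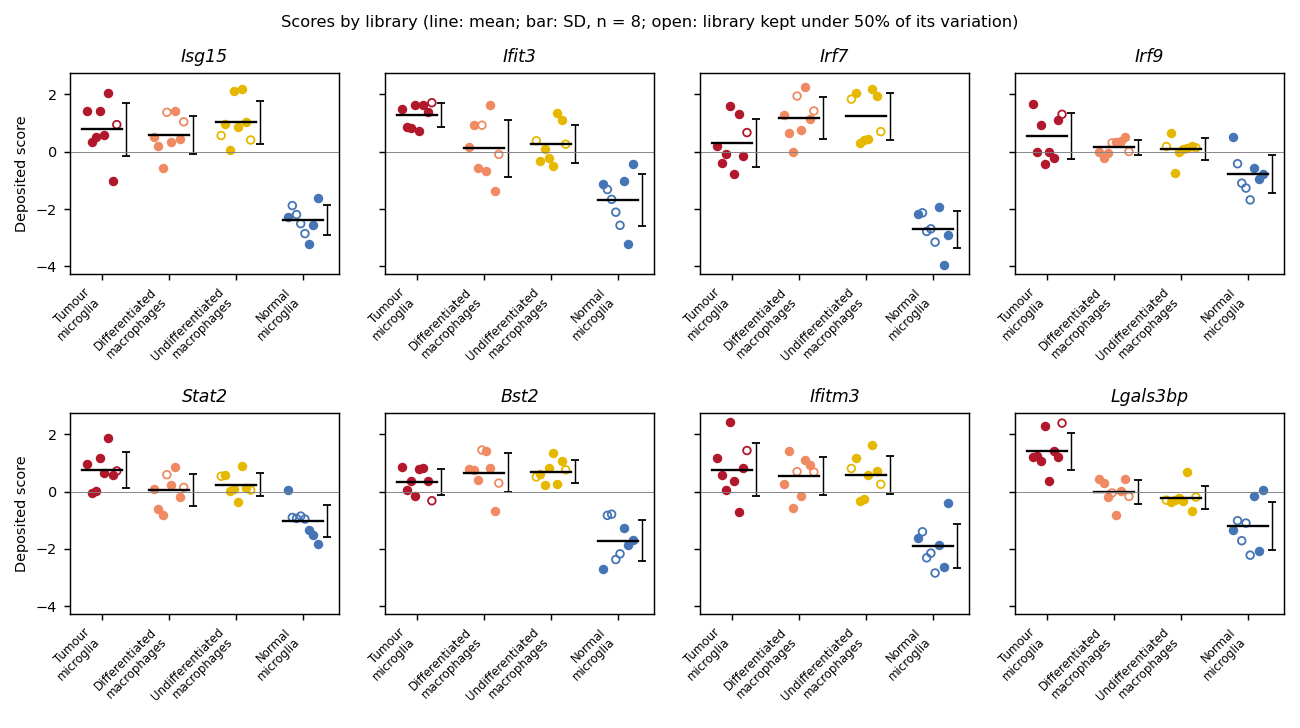
Deposited scores (y axis, units of the deposited scale) of 8 members in each library, by population, with the mean (line) and SD (bar) of 8 libraries. Open circles are libraries that kept under 50% of their own variation. For Isg15, Ifit3, Irf7 and Lgals3bp the points of tumour microglia lie above all points of normal microglia. For Lgals3bp the points of both macrophage populations lie mostly below those of tumour microglia.

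Both macrophage populations were also above normal microglia, a comparison that crosses cell lineage as well as tumour. In differentiated macrophages 24 of 38 members were called higher and 0 lower, beside 24.7% of all genes called higher and 8.02% lower. In undifferentiated macrophages 22 were called higher and 0 lower, beside 21.8% and 6.18% of all genes. The median difference of the members was 1.21 in differentiated and 1.49 in undifferentiated macrophages, against medians of 0.534 and 0.572 over all genes. With library medians subtracted, 15 members were called higher and 0 lower in differentiated macrophages, beside 10.5% and 13.1% of all genes, and 16 higher and 0 lower in undifferentiated macrophages, beside 7.81% and 10.6%. All libraries of the macrophages lay above all normal libraries for 13 members in differentiated macrophages (5.05% of all genes) and for 14 in undifferentiated macrophages (5.51%). These comparisons share the normal libraries with that of tumour microglia, so their values are only set side by side.

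Irf7 had the largest difference from normal microglia in both macrophage populations, 3.87 ± 0.45 in differentiated (adjusted p = 3.2e-06) and 4.18 ± 0.48 in undifferentiated macrophages (adjusted p = 2.9e-06). Its scores were -0.02, 1.21 and 2.28 (lowest, median and highest) in differentiated and 0.30, 1.27 and 2.19 in undifferentiated macrophages, with every library above every normal one. Isg15 differed by 2.89 ± 0.42 and 3.71 ± 0.45 in the same order, Ifit1 by 3.13 ± 0.46 and 3.198 ± 0.49, and Bst2 by 2.35 ± 0.38 and 2.63 ± 0.40. Each of these 4 genes was called in both macrophage populations whichever library was left out. Usp18 differed by 2.55 ± 0.54 and 3.17 ± 0.57, Ifitm3 by 2.42 ± 0.44 and 2.62 ± 0.47, and Slfn5 by 2.32 ± 0.47 and 3.14 ± 0.50. In undifferentiated macrophages these 3 were called in all 32 fits that left out a library. In differentiated macrophages all 3 calls were lost without normal microglia 10 (1.79, 1.81 and 2.05 in that order), and the Usp18 call also without differentiated macrophages 28 (1.47). Ifi44 differed by 2.74 ± 0.44 in differentiated and 1.91 ± 0.47 in undifferentiated macrophages and was called in both. In undifferentiated macrophages the Ifi44 call was lost without normal microglia 2 (1.76) or 1 (1.56). Slfn2 (2.21 ± 0.35) and Mx1 (2.18 ± 0.52) completed the 10 in differentiated macrophages. Slfn2 lost its call there without normal microglia 10 (1.26). Mx1 lost it without differentiated macrophages 28 (0.98) or normal microglia 10 (0.39) or 18 (0.68).

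In undifferentiated macrophages the 10 largest calls further held Zbp1 (3.27 ± 0.55), Dhx58 (2.97 ± 0.39) and Rsad2 (2.82 ± 0.49), each called whichever library was left out. The ISGF3 subunit Stat2 was called in both, at 1.07 ± 0.33 in differentiated and 1.29 ± 0.35 in undifferentiated macrophages. In differentiated macrophages Stat2 lost its call in 5 of the 32 fits, down to 0.34 without normal microglia 10. In undifferentiated macrophages it lost it without differentiated macrophages 31 (1.26) or normal microglia 2 (1.34) or 10 (0.78). Irf9 differed by 0.97 ± 0.38 and 0.82 ± 0.41 and was called in neither. In differentiated macrophages Irf9 was called in 7 of the 32 fits that left out a library, at 0.97 to 1.29. The number of members called higher ranged from 8 (without normal microglia 10) to 27 in differentiated macrophages, with 13 without differentiated macrophages 28 and 15 without normal microglia 18. In undifferentiated macrophages it ranged from 14 (without normal microglia 10) to 26.

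**Figure D4:**
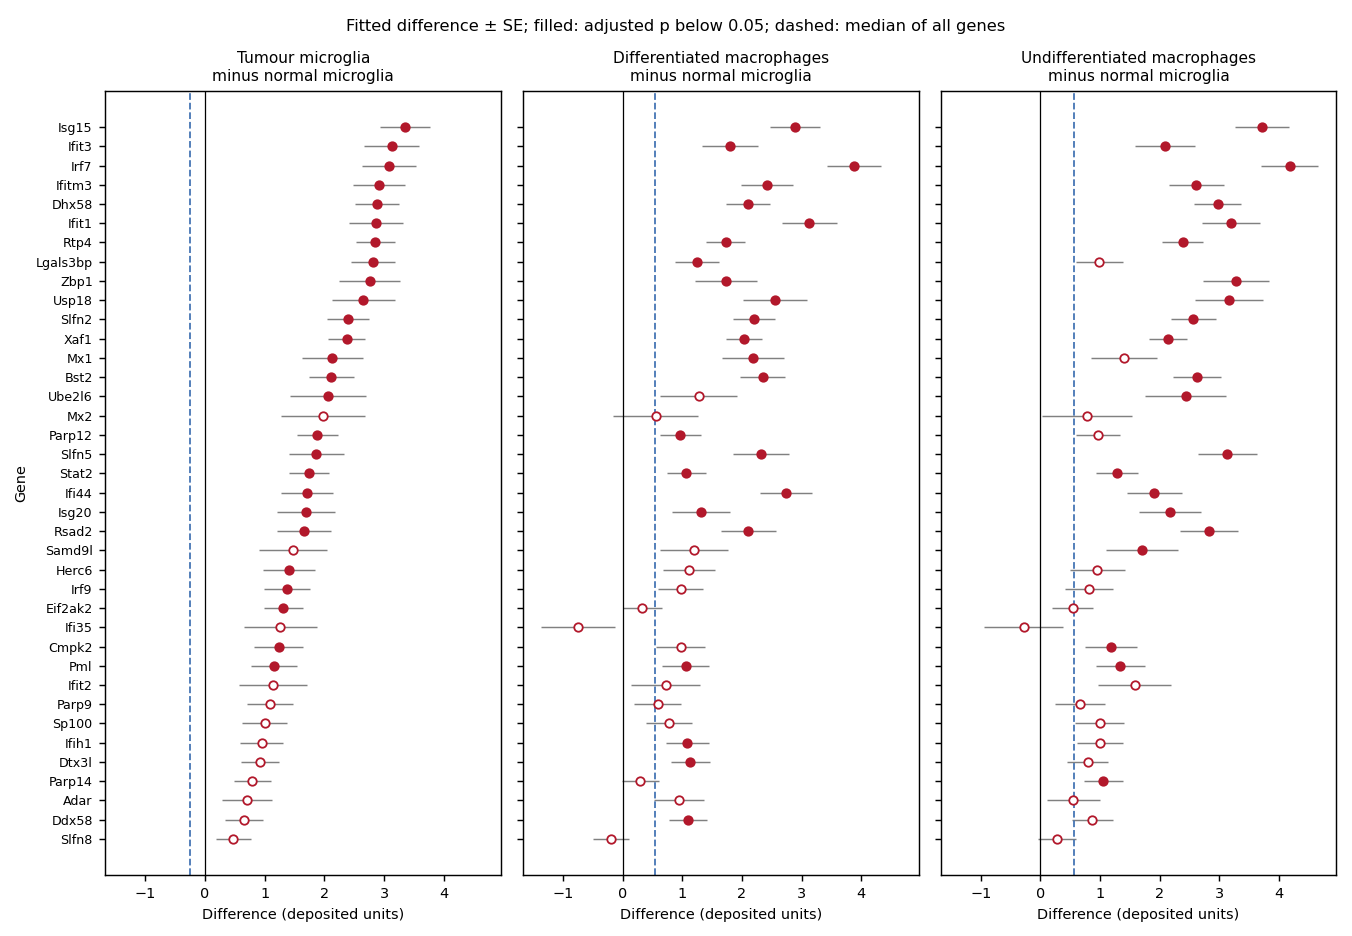
Fitted difference from normal microglia (x axis, units of the deposited scale) of each member (rows) for tumour microglia, differentiated macrophages and undifferentiated macrophages, with SE bars. Filled points had an adjusted p below 0.05, and the dashed line is the median of all genes. All 38 points lie right of 0 in tumour microglia, while Ifi35 lies left of 0 in both macrophage populations and Slfn8 in differentiated macrophages.

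Within the tumour, few members were called between macrophages and tumour microglia on the deposited scale. Of the 38 members, 6 were called lower and 0 higher in differentiated macrophages than in tumour microglia, beside 6.35% of all genes called lower and 37% called higher. In undifferentiated macrophages 1 was called lower and 1 higher, beside 5.19% of all genes lower and 36.7% higher. The median difference of the members was -0.360 in differentiated macrophages and 0.0162 in undifferentiated macrophages, while the medians over all genes were 0.652 and 0.715. The 2 macrophage populations stand above tumour microglia in most genes on this scale, so the count depended on the scaling. With library medians subtracted, 17 members were called lower and 0 higher in differentiated macrophages, beside 19.2% and 19.8% of all genes, and 11 lower and 0 higher in undifferentiated macrophages, beside 16.3% and 16.7%. The median difference of the members was then -1.03 in differentiated and -0.70 in undifferentiated macrophages, against -0.015 and -0.0063 over all genes. No member of differentiated macrophages and 1 of undifferentiated macrophages, Parp12, lay below tumour microglia in every library, beside 1.31% of all genes in each comparison. These comparisons share the tumour microglia libraries.

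Lgals3bp was lower in both macrophage populations whichever library was left out. It scored -0.82, -0.01 and 0.44 in differentiated and -0.69, -0.29 and 0.69 in undifferentiated macrophages, against 0.38, 1.23 and 2.39 in tumour microglia. Apart from tumour microglia library 3 at 0.38, the tumour microglia lay above the macrophage libraries. The difference was -1.58 ± 0.38 in differentiated macrophages (adjusted p = 0.002) and -1.84 ± 0.40 in undifferentiated macrophages (adjusted p = 0.001). With recipients matched, the difference between mean scores in differentiated macrophages was -1.48 in WT and -1.33 in Pep3 recipients. In undifferentiated macrophages it was -1.49 in WT and -1.75 in Pep3 recipients. In each experiment the labels place the macrophages of 1 recipient strain beside the tumour microglia of the other, so a difference within an experiment also crosses recipient and graft, and experiment and recipient cannot be matched at once. Within experiments 3 and 4 the Lgals3bp difference was -1.58 and -1.23 for differentiated macrophages and -1.59 and -1.65 for undifferentiated macrophages. Over the list, 24 of 38 mean differences were below 0 for differentiated macrophages in each experiment and in each recipient strain. For undifferentiated macrophages the counts were 18 and 23 in experiments 3 and 4, and 20 and 24 in WT and Pep3 recipients. Experiments and recipients regroup the same libraries, so these counts are not independent, and the same count was not made over all genes.

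The other members called lower in differentiated macrophages were Ifi35 (-2.02 ± 0.63), Ifit3 (-1.33 ± 0.49), Rtp4 (-1.13 ± 0.34), Eif2ak2 (-0.99 ± 0.34) and Parp12 (-0.92 ± 0.35). Ifi35 scored -2.23, -0.75 and 0.83 in differentiated macrophages, against 0.31, 1.01 and 2.27 in tumour microglia. Ifit3 scored -1.38, 0.04 and 1.65 in differentiated macrophages, against 0.72, 1.45 and 1.71 in tumour microglia. The groups overlapped for both genes. Within each recipient strain the mean differences of these 5 genes were all below 0. They were -2.13 in WT and -1.58 in Pep3 recipients for Ifi35, and -1.49 in WT and -0.84 in Pep3 recipients for Ifit3. The smallest was -0.71, for Rtp4 in Pep3 recipients. Within experiments 3 and 4, which cross the recipients, they were also below 0, the smallest being -0.78 for Eif2ak2 in experiment 3. Ifi35 lost its call without differentiated macrophages 28 (-1.51) or undifferentiated macrophages 8 (-1.73), and Rtp4 without differentiated macrophages 28 (-1.24) or undifferentiated macrophages 8 (-0.75). Eif2ak2 lost it without tumour microglia 30 (-0.82) or 27 (-0.70), differentiated macrophages 4 (-0.87) or undifferentiated macrophages 29 (-0.78). Ifit3 lost it in 9 and Parp12 in 11 of the 32 fits, at -1.41 to -1.05 and -1.09 to -0.70. The count of members called lower fell to 3 without tumour microglia 30, tumour microglia 27 or differentiated macrophages 28.

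In undifferentiated macrophages the member called higher was Slfn5, at 1.27 ± 0.50 (adjusted p = 0.045). Its mean difference was 1.64 in WT and 0.54 in Pep3 recipients, and 1.33 within experiment 3 and 0.85 within experiment 4, where recipients are crossed. It scored -0.23, 1.21 and 2.47 in undifferentiated macrophages, against -0.67, 0.00 and 0.92 in tumour microglia, with overlap. The Slfn5 call was lost in 17 of the 32 fits that left out a library and with library medians subtracted. Irf9 and Stat2 were called in neither macrophage population against tumour microglia. Irf9 differed by -0.40 ± 0.39 in differentiated and -0.55 ± 0.41 in undifferentiated macrophages, and Stat2 by -0.67 ± 0.34 and -0.45 ± 0.36.

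**Figure D5:**
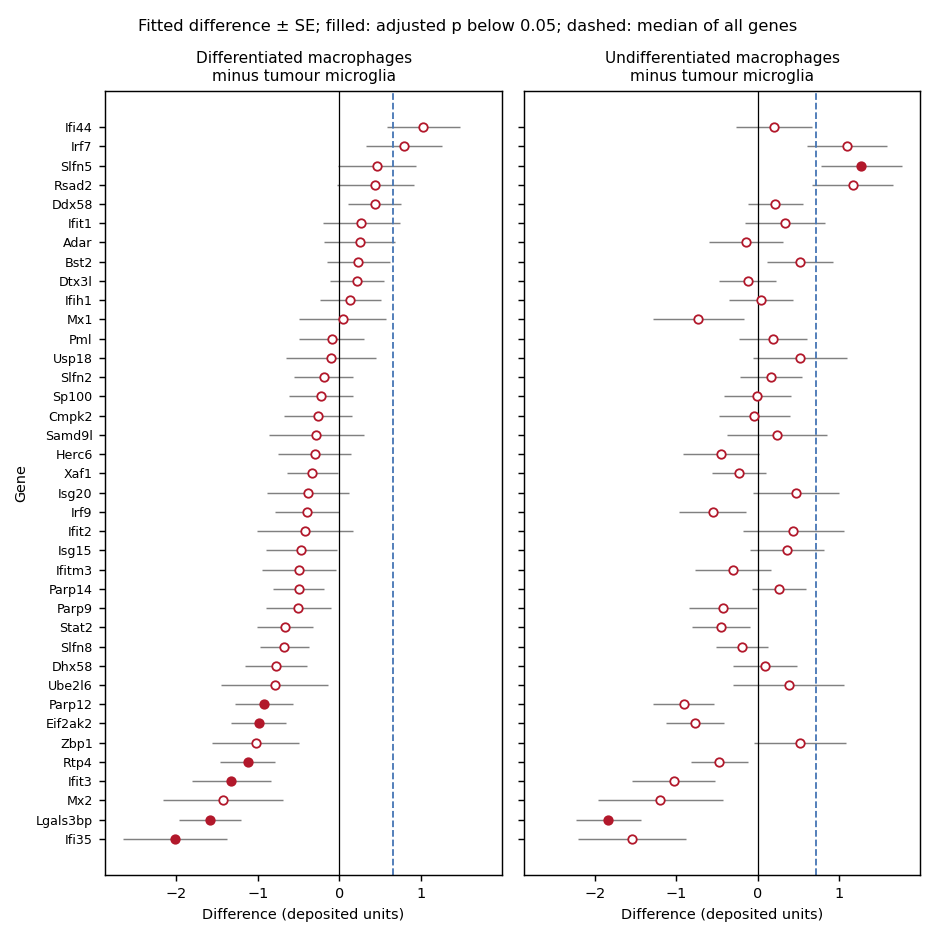
Fitted difference from tumour microglia (x axis, units of the deposited scale) of each member (rows) for differentiated and undifferentiated macrophages, with SE bars. Filled points had an adjusted p below 0.05, and the dashed line is the median of all genes. The points right of that median are Irf7 and Ifi44 for differentiated and Rsad2, Irf7 and Slfn5 for undifferentiated macrophages. Lgals3bp is filled in both panels.

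No member was called between differentiated and undifferentiated macrophages. The count in limma was 0 of 38, with 2 at an unadjusted p below 0.05, beside 0.0114% of all genes called lower and 0% higher (491 genes unadjusted). The differences ran from -1.54 for Zbp1 to 0.83 for Ifi44. With library medians subtracted the count stayed at 0, with the same shares of all genes. The median difference of the members was -0.255, differentiated minus undifferentiated, against -0.0456 over all genes. Irf9 differed by 0.15 ± 0.45 and Stat2 by -0.22 ± 0.39. This comparison kept 67.57% of its contrast after the removed directions, the lowest share of the 6, so a miss here does not show that the populations were alike.

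Recipient strain could be tested only as a difference in a population contrast. In every population the WT and Pep3 libraries came from different experiments, per the labels, and in the tumour populations from opposite grafts. A strain difference here therefore cannot be told apart from experiment or graft. For tumour against normal microglia limma called 0 members (2 unadjusted) beside 5.03% of all genes, and 0 members (0 to 4 unadjusted) in each of the other 5 comparisons. The share of all genes called was 0.449% for differentiated and 0.00569% for undifferentiated macrophages against tumour microglia, 0% between the macrophages, and 0.0171% for differentiated and 0.0227% for undifferentiated macrophages against normal microglia. The 884 genes behind the 5.03% became 33 without differentiated macrophages 31, 51 without undifferentiated macrophages 8 and 0 with no covariates for the removed directions. The 79 genes behind the 0.449% became 0 to 464 with single libraries left out. In 6 fits that left out a library Herc6 was called for tumour against normal microglia.

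The other genes of the pathway were read from further lists. For tumour against normal microglia their counts stand beside 4.66% of all genes called higher and 12% lower. In tumour microglia against normal microglia, 0 of 7 genes for receptors and kinases were called, with Ifnar1 at -0.07 ± 0.34 and Ifnar2 at -0.02 ± 0.35. Irf8, an interferon regulatory factor of the myeloid lineage, was lower (-0.85 ± 0.29), a call lost in 21 of the 32 fits that left out a library. Irf1 (0.96 ± 0.42) and Irf3 (-0.40 ± 0.57), the factor that starts interferon production, were not called. Of 11 measured sensors and adaptors, Ikbke, a kinase that activates IRF3, was higher by 2.77 ± 0.49 in all 32 fits, and Tlr3, an endosomal sensor of double-stranded RNA, by 0.98 ± 0.33, lost in 13 fits. No gene of the interferon ligand list was analysed here, Ifnb1 included.

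Brakes of the pathway were among the genes called higher in tumour microglia, where 4.66% of all genes were called higher and 12% lower. Of 8 negative regulators, 4 were called higher and 0 lower: Socs3 (2.16 ± 0.35) and Socs1 (1.47 ± 0.51), which block JAK signalling, the DNase Trex1 (1.43 ± 0.42) and Tnfaip3 (1.35 ± 0.39), a brake on NF-kB. Socs3 was called whichever library was left out, Socs1 lost its call in 24 of the 32 fits and Trex1 and Tnfaip3 in 5 each, Tnfaip3 down to 0.24 without normal microglia 1. Of 20 other measured interferon-stimulated genes, 12 were called higher and 0 lower. The 6 largest were Ifi204 (3.09 ± 0.37), Oasl2 (2.74 ± 0.33), Rnf213 (2.40 ± 0.36), Ms4a4c (2.34 ± 0.51), Oasl1 (2.08 ± 0.59) and Daxx (1.46 ± 0.43). The first 3 were called in every fit that left out a library, Ms4a4c lost its call in 4, Oasl1 in 5 and Daxx in 6, and the count of this list ranged from 3 to 12.

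Several sensors were lower in the macrophages than in tumour microglia. Of all genes, 6.35% were called lower and 37% higher in differentiated macrophages. In undifferentiated macrophages these shares were 5.19% and 36.7%. Of the 11 sensors and adaptors, 5 were called lower and 0 higher in differentiated macrophages: the endosomal sensors Tlr7 (-1.93 ± 0.36) and Tlr3 (-1.75 ± 0.34), the adaptor Tmem173 (STING, -1.50 ± 0.37), the kinase Tbk1 (-1.45 ± 0.53) and the chaperone Unc93b1 (-0.89 ± 0.32). In undifferentiated macrophages 4 were lower, Tlr3 (-2.08 ± 0.36), Tlr7 (-1.65 ± 0.37), Unc93b1 (-1.37 ± 0.33) and Tmem173 (-1.32 ± 0.38), and Ikbke (1.67 ± 0.53) and Traf3 (1.44 ± 0.46) were higher. Tlr3 and Tlr7 were called in both populations whichever library was left out. Tmem173 lost its call without differentiated macrophages 28 (-1.04 in each) and, for undifferentiated macrophages, without undifferentiated macrophages 21 (-0.93). Tbk1 lost it in 10 fits, Unc93b1 in 4 in differentiated macrophages and in none in undifferentiated macrophages, Ikbke in 3 and Traf3 in 4. Of the 7 receptors and kinases, the interferon gamma receptor chain Ifngr1 (-1.11 ± 0.40 and -1.12 ± 0.42) was lower in both macrophage populations and Jak1 (-0.89 ± 0.33) in differentiated macrophages. The Ifngr1 calls were lost in 10 and 15 fits and the Jak1 call in 7. Ifnar1 differed by 0.18 ± 0.35 and 0.87 ± 0.36 and Ifnar2 by -0.89 ± 0.36 and -0.87 ± 0.38, with none called with all libraries. Irf8 was lower in both (-1.14 ± 0.30 and -1.30 ± 0.31), in every fit that left out a library. Among the other interferon-stimulated genes, Ifi203 (3.66 ± 0.50 and 3.41 ± 0.52) and Ms4a4c (1.59 ± 0.53 and 1.87 ± 0.55) were higher in both, while Ddx60 (-1.55 ± 0.33) and Ly6e (-1.10 ± 0.29) were lower in differentiated macrophages. Ifi205 (1.70 ± 0.59) was higher in undifferentiated macrophages. Ifi203 was called in every such fit, Ms4a4c lost its call in 4 and 2, Ifi205 in 7, and Ddx60 (-1.19) and Ly6e (-1.06) without differentiated macrophages 28. Socs1 differed by 1.06 ± 0.52 and 1.16 ± 0.55 and was not called. Irf1 (0.32 ± 0.44 and 0.93 ± 0.46) and Irf3 (-1.09 ± 0.59 and -0.55 ± 0.62) were not called either. None of the 8 negative regulators was called in these 2 comparisons. As for the members, these counts depended on the scaling. With library medians subtracted, 19.2% of all genes were called lower and 19.8% higher in differentiated macrophages. In undifferentiated macrophages these shares were 16.3% and 16.7%. On that scale 2 negative regulators were called lower in differentiated and 1 in undifferentiated macrophages. Of the other interferon-stimulated genes, 1 was then called higher and 8 lower in differentiated macrophages, against 2 and 2 on the deposited scale. In undifferentiated macrophages 1 was then called higher and 5 lower, against 3 and 0 on the deposited scale. No sensor was then called higher in undifferentiated macrophages, and 5 were called lower in each population. The receptors and kinases then had 4 called lower in differentiated and 3 in undifferentiated macrophages.

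Against normal microglia the same lists gave calls in both directions. Of all genes, 24.7% were called higher and 8.02% lower in differentiated macrophages. In undifferentiated macrophages these shares were 21.8% and 6.18%. Irf1 was higher in differentiated (1.28 ± 0.42) and undifferentiated macrophages (1.89 ± 0.45), while Irf8 was lower (-1.99 ± 0.29 and -2.15 ± 0.31). Irf2 (-1.20 ± 0.34) was lower in differentiated macrophages. Irf3 differed by -1.49 ± 0.58 and -0.95 ± 0.62 and was not called. Ikbke was higher (3.94 ± 0.49 and 4.44 ± 0.52), and Tmem173 (-1.33 ± 0.36 and -1.16 ± 0.38), Tlr7 (-1.36 ± 0.35 and -1.08 ± 0.37) and Unc93b1 (-1.06 ± 0.31 and -1.54 ± 0.33) were lower, with Tlr3 (-1.11 ± 0.35) lower in undifferentiated macrophages. Of the receptors and kinases, Ifngr1 was lower (-1.66 ± 0.39 and -1.67 ± 0.42) and Jak2 was higher in undifferentiated macrophages (1.27 ± 0.42). Several of these calls depended on single libraries. Of the 32 fits that left out a library, Irf1 lost its call in 9 in differentiated and 3 in undifferentiated macrophages, Irf2 in 3 and Jak2 in 10. Ifngr1 lost it without normal microglia 10 (-0.77 in differentiated and -1.05 in undifferentiated macrophages) and, in undifferentiated macrophages, also without differentiated macrophages 31 (-1.52). Tmem173 lost its call in 3 fits in differentiated and 7 in undifferentiated macrophages, Tlr7 in 2 and 9, Unc93b1 in 4 and 0, and Tlr3 in 7 in undifferentiated macrophages. The number of sensors called lower was 3 of 11 in differentiated and 4 of 11 in undifferentiated macrophages, with ranges of 1 to 5 and 1 to 4 over these fits. Ifnar1 (0.10 ± 0.34 and 0.80 ± 0.36) and Ifnar2 (-0.91 ± 0.35 and -0.89 ± 0.38) were not called.

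Some brakes and other interferon-stimulated genes were called higher as well, beside the 24.7% of all genes called higher in differentiated and 21.8% in undifferentiated macrophages. Of 8 negative regulators 3 were higher in differentiated and 4 in undifferentiated macrophages: Socs1 (2.53 ± 0.51 and 2.62 ± 0.54), Socs3 (1.53 ± 0.35 and 1.80 ± 0.37), Tnfaip3 (1.43 ± 0.39 and 1.69 ± 0.41) and, in undifferentiated macrophages, Samhd1 (0.86 ± 0.32). Leaving out single libraries gave 0 to 3 and 1 to 5 negative regulators called higher in the same order. Of 20 other interferon-stimulated genes 11 and 12 were higher and 0 lower. With library medians subtracted these counts were 6 and 7, and with single libraries left out 3 to 12 and 7 to 13. The largest were Ms4a4c (3.93 ± 0.51 and 4.21 ± 0.54), Oasl2 (2.64 ± 0.34 and 3.12 ± 0.36), Ifi205 (2.61 ± 0.55 and 2.93 ± 0.59), Ifi203 (2.55 ± 0.48 and 2.30 ± 0.52) and Ifi204 (2.20 ± 0.38 and 2.16 ± 0.40), with Rnf213 (1.91 ± 0.37) in differentiated and Oasl1 (2.26 ± 0.63) in undifferentiated macrophages. Ikbke, Irf8, Ms4a4c, Oasl2 and Ifi204 were called in both populations whichever library was left out. Socs1 and Socs3 lost their calls without normal microglia 10 in differentiated and normal microglia 2 in undifferentiated macrophages, and Samhd1 in 25 of the 32 fits. Tnfaip3 lost its call in 5 and 3 fits and Oasl1 in 7 and 3, in the same order. Rnf213 and Ifi205 lost theirs in differentiated macrophages without normal microglia 10 (1.47 and 2.37), as did Ifi203 (1.96). In undifferentiated macrophages Ifi205 lost its call without normal microglia 2 (1.71) and Ifi203 without differentiated macrophages 31 (1.81).

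Markers of other cells were read beside these results. In tumour against normal microglia, 0 of 6 monocyte and macrophage markers were called (differences -0.995 to 0.458) and 1 of 6 microglia markers was lower (Tmem119, -1.08 ± 0.29). Of the 2 conventional dendritic cell markers, Xcr1 was higher (1.66 ± 0.46) and Zbtb46 (-0.11 ± 0.31) was not called. Of the 3 astrocyte markers, Aldh1l1 was higher (2.12 ± 0.56), while Gfap (0.0044 ± 0.46) and Aqp4 (-0.58 ± 0.37) were not called. Of the 3 neuron markers, Snap25 was lower (-1.50 ± 0.47) and Syt1 and Rbfox3 were not called. The 1 measured marker of glioma or dividing neural cells was not called (0.69). These 4 marker calls were lost in 4 (Tmem119), 5 (Xcr1), 5 (Aldh1l1) and 10 (Snap25) of the 32 fits that left out a library. Immediate early genes, which rise during tissue dissociation, gave 0 calls among 4 (Fos, Jun, Egr1 and Ier2, -0.12 to 1.28). With library medians subtracted 1 of the 4 was called higher, beside 7.72% of all genes. Single libraries left out gave 0 to 1 called higher. Markers of other cells were also called in the macrophages. Against tumour microglia, the B cell markers Cd79a (1.79 ± 0.46 in differentiated and 2.495 ± 0.48 in undifferentiated macrophages) and Ms4a1 (1.53 ± 0.36 and 1.69 ± 0.37) were higher in both populations. Of 3 listed NK cell markers only Klrb1c had a row, and it was higher in both as well (2.39 ± 0.62 and 2.34 ± 0.64). Of 2 plasmacytoid dendritic cell markers, Ccr9 was higher in both (1.56 ± 0.44 and 1.83 ± 0.46). The other was lower in differentiated macrophages (-0.82) and not called in undifferentiated macrophages (-0.69). Of 2 conventional dendritic cell markers, Zbtb46 was higher in both (1.47 ± 0.32 and 1.28 ± 0.33). In both populations the Klrb1c and Ccr9 calls were each lost in some fit that left out a library. Of 5 listed T cell markers only Lck had a row. Lck was higher in differentiated macrophages (2.13 ± 0.51), and differed by 1.22 ± 0.54 in undifferentiated macrophages, not called. Of 3 astrocyte markers 2 (Gfap and Aqp4) and of 3 neuron markers 2 (Syt1 and Snap25) were higher in both populations. Of 2 endothelial markers 1 was higher in differentiated macrophages. These calls stand beside the 37% and 36.7% of all genes called higher. The glioma or dividing neural marker was not called in either population (0.91 and 0.92). With library medians subtracted 0 astrocyte, 0 neuron and 0 endothelial markers were called, while Ms4a1 and Klrb1c still were in both populations. Of 4 listed neutrophil markers only Csf3r had a row, and it was lower in both. NK cells, T cells and neutrophils were thus read from 1 gene each. Against normal microglia, both B cell markers, both conventional dendritic cell markers and Klrb1c were higher in both macrophage populations. Lck (1.94 ± 0.50) was higher in differentiated macrophages. Of 2 plasmacytoid dendritic cell markers 1 was higher and 1 lower in both. The glioma or dividing neural marker was higher in both (1.59 and 1.61). Of 3 astrocyte markers 2 were higher in differentiated and 0 in undifferentiated macrophages. Of 4 immediate early genes 1 was higher and 2 were lower in both. Of all genes, 24.7% were called higher in differentiated and 21.8% in undifferentiated macrophages. With library medians subtracted Klrb1c and the glioma marker were called in neither, and 0 astrocyte markers were called. In some fits that left out a library, the Klrb1c and glioma marker calls were lost and the B cell count fell to 0 in both populations. In some, the Lck call was lost and the conventional dendritic cell count fell to 0 in differentiated macrophages. Against tumour microglia, the immediate early genes Jun (-1.43 ± 0.33 and -1.09 ± 0.34) and Egr1 (-1.41 ± 0.39 and -1.50 ± 0.41) were lower in differentiated and undifferentiated macrophages. The part of other cells and of dissociation in the interferon result was not tested.

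Members also varied together from library to library once the population and strain means and the removed directions were taken out, over 15 residual directions. The median correlation of the 703 pairs of members was 0.245, and 19.9% of pairs were above 0.5. Over all gene pairs the median was 0.0344 and 5.04% were above 0.5. With the means of runs of 8 consecutive library numbers, each holding every population of both recipient strains once, also taken out within each strain, over 9 residual directions, the median was 0.145 for pairs of members and 0.0329 for all pairs, with 14.1% and 9.63% above 0.5. The highest pairs were Parp12 with Ifit2 (0.905), Parp12 with Ifit3 (0.867) and Mx2 with Ifit3 (0.853). Mx2 (median correlation with the other members 0.471), Pml (0.463), Ifit1 (0.449) and Rsad2 (0.427) had the highest of these medians. Rtp4 (-0.195) and Bst2 (-0.139), both called in tumour microglia, had the lowest. The points share libraries and removed directions, and these correlations are a description only. Tumour microglia library 30 had 35 of 38 members above 0 and tumour microglia library 22 had 20, against 0 to 8 in the libraries of normal microglia.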

How the data were processed

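RNA of 32 libraries of sorted mouse brain cells was amplified with the SMART-Seq v4 kit, per the labels' protocols. The submitters' processing notes name RSEM 1.3.0, STAR 2.5.0a, FastQC and the build mm9. The authors deposited 1 table whose name calls it normalised counts, but its values are signed, so each deposited value was treated as a score of unstated scale. Which step centred the table and removed 11 sample directions is not given in the sources used here.

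Scores of all 17586 genes and 32 libraries were fitted in limma 3.58.1 (R 4.3.3) with robust empirical Bayes variances, a mean for each population within each strain of recipient, and covariates for the removed directions. The fit had 15 residual degrees of freedom. Each contrast averaged the strains, tests were two-sided, and p-values were Benjamini-Hochberg adjusted over all genes, with a call at an adjusted p below 0.05. No filter, pseudocount or logarithm was applied. The code was tested on simulated data with noise independent between genes and the same directions removed. For tumour against normal microglia, 4% of genes changed by 1 and 70% of genes changed by 2 were called. Of unchanged genes, 4.70% had an unadjusted limma p below 0.05 with the covariates and 9.78% without them. Counts with no covariates are therefore less strict. The removed directions took an unequal share of each library: the share kept was 3.42% to 38.96% in 9 libraries and at least 66.02% in the others. The highest correlation between 2 libraries was 0.889.

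The members, the other gene lists and the alternatives were chosen with earlier results of these data known. The rule for naming took every member in tumour against normal microglia, with library values for the 3 largest called differences and for Isg15, Irf7, Irf9, Stat2, Bst2 and Ifitm3. In the other comparisons it took the members called, up to 10 in each direction by size, with Irf9 and Stat2. Of the other lists it took up to 6 called genes in each direction and Ifnar1, Ifnar2, Ifnb1, Irf1, Irf3 and Socs1. A further gene of these lists is not reported here. Counts of the other lists with single libraries left out and a block for runs of 8 library numbers were added after seeing the data, and other genes given with the markers, the promoters and the correlations fall outside the rule. Promoter windows came from RefSeq on GRCm38.p6, and the deposited table gives no coordinates.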

Additional observations from a re-analysis of the deposited data

Results flagged for a closer look

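Dixon's critical value for 8 samples was applied to 152 groups of 8 scores (38 members in 4 populations). In 10 of them 1 library lay further from the others than this value allows. Chance gives about 7.6 if scores are independent and of equal spread. Libraries kept unequal shares of their variation and members varied together, so 7.6 is only a rough guide. In normal microglia, library 9 was low for Zbp1 (-3.13, the others -2.02 to -1.48), Parp14 (-1.67, the others -0.565 to -0.00531) and Sp100 (-2.42, the others -0.66 to -0.16). Library 17 of the same population was low for Pml (-1.87), and library 2 was high for Mx1 (1.32, the others at most -0.95). In tumour microglia, library 30 was high for Ifih1 (1.29, the others at most 0.29). In differentiated macrophages, library 15 was high for Xaf1 (1.44) and library 4 was low for Ube2l6 (-2.72). In undifferentiated macrophages, library 16 was high for Dhx58 (2.71, the others at most 1.02) and library 13 was high for Lgals3bp (0.688, the others at most -0.19). Each of these libraries kept at least 66.02% of its own variation.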

How the results depend on the processing

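The labels number the libraries from 1 to 32 and state no pairing, but each run of 8 numbers holds every population of each recipient strain once. A replicate block for these runs, over both strains or within each, was added after seeing the data. Correlations of deviations from the group means between libraries of the same run and strain had medians from -0.0515 to 0.105 over the 6 comparisons. At most 4 of 8 pairs in a comparison were above 0.1. For tumour against normal microglia the median was 0.105, against -0.0444 between libraries of different runs. For differentiated against undifferentiated macrophages these values were 0.103 and -0.0546. In each of these 2 comparisons the same run gave the highest correlation for 4 of 8 libraries. The fit as reported did not pair the libraries, and these values do not settle whether the numbers do. With the replicate block over both strains or within each, tumour against normal microglia had 23 or 26 members called higher. Against tumour microglia the counts were 1 higher with 4 or 5 lower in differentiated and 3 higher with 1 lower in undifferentiated macrophages under the block. Against normal microglia they were 26 and 22 higher, and 0 members were called in the strain difference. Of all genes, the block left 0 or 1 called in the strain difference of tumour against normal microglia. Tumour against normal microglia had 26 members called higher as reported and 17 with library quality weights, 0 in WT recipients alone, 0 in Pep3 recipients alone, and 0 (9 with no covariates) without the 9 libraries that kept under 50%. Single libraries left out gave 11 to 29 higher and 0 lower. Differentiated macrophages against tumour microglia had 0 higher and 6 lower as reported. There 1 was higher with no covariates, 1 with quality weights and 0 to 1 with single libraries left out. There 17 were lower with library medians subtracted, 0 in each recipient strain alone, without the 9 libraries and with only the 2 populations compared, and 3 to 7 with single libraries left out. Undifferentiated macrophages against tumour microglia had 1 higher and 1 lower as reported. The counts higher and lower were 3 and 5 with no covariates, 0 and 11 with medians subtracted and 3 and 3 with quality weights. The higher count was 2 with means per population only and 0 without the 9 libraries with no covariates, and both counts were 0 in each recipient strain alone, without the 9 libraries and with only the 2 populations compared. Single libraries left out gave 0 to 3 higher and 1 to 3 lower. Differentiated macrophages against normal microglia had 24 higher as reported, 15 with medians subtracted, 13 with quality weights and 13 without the 9 libraries with no covariates. The count was 0 in each recipient strain alone, without the 9 libraries and with only the 2 populations compared, and 8 to 27 higher and 0 to 1 lower with single libraries left out. Undifferentiated macrophages against normal microglia had 22 higher as reported, 0 in WT recipients alone, 3 in Pep3 recipients alone, 0 without the 9 libraries and 7 with only the 2 populations compared, and 14 to 26 higher and 0 to 1 lower with single libraries left out. Between the macrophage populations 0 members were called in every fit. The strain difference had 0 members called, and 0 to 1 with single libraries left out. Among the members called in tumour against normal microglia, the sign was opposite for Irf9 (-1.89, Pep3 alone), Slfn5 (-0.47, WT alone) and Pml (-0.19, WT alone). Members not called also changed sign in some fits. With single libraries left out, the lowest values were -0.25 for Mx2 and -0.29 for Adar. Fits of 1 strain or only 2 populations had 3 residual degrees of freedom, and those without the 9 libraries 6 (15 with no covariates). The cause of each change was not tested. Depth is unknown, so its limit on weakly expressed members could not be set.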
